A study of Saccharomyces cerevisiae with 16 samples.

Results

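Wild-type SK1 yeast at 6 h in sporulation medium, when the cells are in the meiotic divisions, was examined gene by gene for how densely ribosomes covered its mRNAs. Genes were kept where footprints and mRNA both averaged at least 5 RPKM (reads normalised to counted length and to library depth) over the WT libraries of that time, which left 4818 of 6679 genes. The rule used expression level in both kinds of library and not their ratio. The groups were SK1 WT at 6 h and SK1 WT at 3 h after transfer to sporulation medium, each with 2 footprint and 2 mRNA libraries (replicates 3 and 4), and, for side-by-side values only, an SK1 strain at 6 h whose DBP1 reading frame was removed with Cas9 without leaving a marker (replicates 2 and 4). All cells received 100 µM cycloheximide, a translation inhibitor that holds ribosomes in place, for 1 min before collection, and ploidy is not given in the sources used here. Whether replicates came from separate cultures is not stated, so errors and p-values cover library-to-library spread, and that spread may be technical.

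Ribosome profiling sequences the short mRNA fragments that a ribosome shields from nuclease. Footprints divided by mRNA give a gene's translation efficiency, a measure of ribosomes per length of mRNA. In budding yeast meiosis this ratio is known to be regulated gene by gene. Upstream open reading frames capture scanning ribosomes, an RNA-binding protein holds the cyclin mRNA CLB3 silent until meiosis II, and for some genes a promoter farther upstream makes a long undecoded transcript isoform (LUTI) that is poorly translated. The transcription factor Ndt80 turns on the middle meiotic genes, which carry cells through both divisions and into spore formation. Reads per gene do not tell transcript isoforms apart, so an mRNA value here sums every isoform over the reading frame, and the strand setting of the count is not given in the sources used here.

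Whole reads recovered from the steps between RPKM values gave 4619171 to 5294778 reads in genes for the WT 6 h footprint libraries and 7931751 to 8771882 for the mRNA libraries. At 4 to 6 RPKM, the lower edge of the set, a library held a median of 35 footprint reads or 58 mRNA reads per gene. Log2 values of the replicates correlated across genes at r = 0.992 for footprints and 0.994 for mRNA (n = 4818 genes, a description, since genes are not independent). All 12 middle meiotic markers had at least 5 RPKM in footprints at 6 h, and their summed level was 42761 to 45277 RPKM in the WT 6 h footprint libraries, against 255 to 272 RPKM at 3 h. In mRNA the same markers summed to 85836 to 87819 RPKM at 6 h, but to 825 RPKM in one 3 h library and 2038 RPKM in the other. Their 3 h values in mRNA are thus less certain. None of 8 markers of mitotic growth reached 5 RPKM in 6 h footprints (summed level 13.3 to 17.0 RPKM at 6 h and 55.7 to 86.4 RPKM at 3 h). The 8 haploid markers summed to 1802 to 1867 RPKM at 6 h and 115 to 121 RPKM at 3 h, nearly all of it STE18 at 6 h (mean 1682 RPKM), a G protein subunit gene, and none of the 3 marker lists had a gene at 0. A further list of 16 mitotic markers held 6 genes that averaged at least 5 RPKM in both kinds at 6 h. The median of those 6 was 29.7 RPKM in footprints. The part of any mitotic or haploid cells in the results below was not tested, and in bulk samples fewer cells of a type and less RNA per cell cannot be told apart.

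Efficiency is given as log2 of (footprint RPKM + 1) over (mRNA RPKM + 1), minus its median over the 4818 genes. A gene at 0 thus had the ribosome density of the median gene, per length of mRNA and not per whole mRNA. The added 1 understates the ratios of genes with few reads. Footprints tracked mRNA (r = 0.904 across the 4818 genes on the log2 scale), and footprints varied slightly more between genes (SD 2.01) than mRNA did (SD 1.93). Efficiency itself had an SD of 0.87 and ran from -1.45 at the 5th percentile to 1.30 at the 95th, a 6.74-fold range. Its extremes, -7.46 and 3.91, belonged to genes not named below. The highest and lowest genes below were picked only among called genes that match RefSeq and overlap no other annotated gene. The median standard error of a gene's efficiency was 0.12, and the efficiencies of the replicates correlated at r = 0.920. Each standard error and p-value draws on replicate spread at 3 h as well as at 6 h. The test (limma, treat) asked which genes lay more than 2-fold from the median gene at an adjusted p under 0.05. It called 190 genes high (3.94% of 4818) and 220 low (4.57%), 410 in all (8.51%). Every called gene lay past 2-fold in both replicates. The numbers rest on having a pair of replicates at 6 h: without WT 6 h replicate 3 they were 44 high and 99 low, and without replicate 4 they were 100 high and 134 low, where the lone library of each kind is assumed to vary like the other groups. The 190 high genes took 11.3% and 11.02% of footprint reads and 3.21% and 3.44% of mRNA reads in replicates 3 and 4. For the 220 low genes the shares were 2.13% and 2.24% of footprint reads and 9.34% and 8.99% of mRNA reads.

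**Figure D1:**
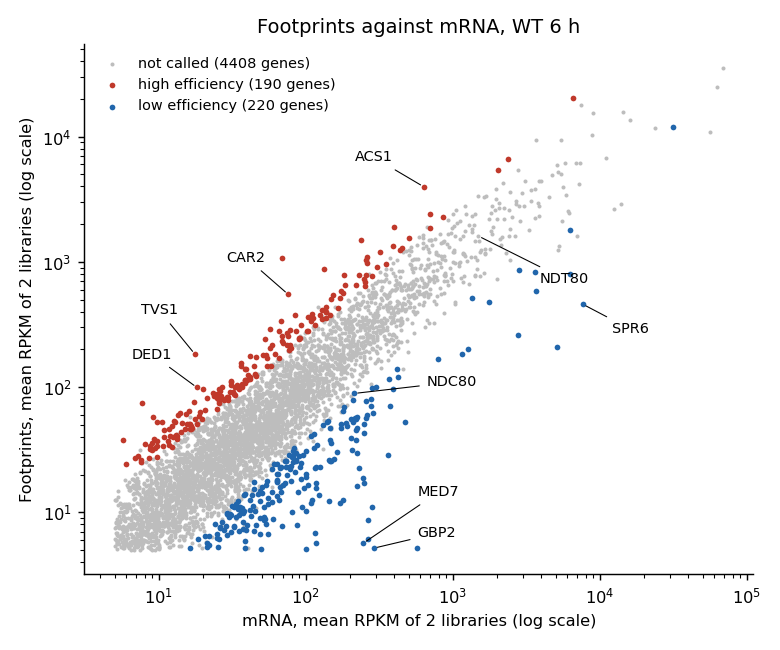
Mean footprint RPKM (y axis, log scale) against mean mRNA RPKM (x axis, log scale) of 4818 genes in WT at 6 h, 2 libraries each, with 190 high-efficiency genes in red and 220 low-efficiency genes in blue. Red points run along the upper edge of the cloud, blue points are missing from the genes with the scarcest mRNA, and GBP2 and MED7 lie farthest below it among the labelled genes.

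The 10 named genes of highest efficiency held metabolic enzymes, a protease, proteins of the mitochondrial outer membrane, a splicing factor and an RNA helicase. TVS1 led them, with 188 and 178 RPKM in footprints against 16.3 and 18.9 RPKM in mRNA, an efficiency of 3.27 (SE 0.09) or 9.62-fold above the median gene (adjusted p = 4.87e-06). CAR2, the ornithine transaminase of arginine breakdown, had 573 and 528 RPKM in footprints against 71.7 and 79.8 RPKM in mRNA and an efficiency of 2.80 (SE 0.10). PRB1, the vacuolar proteinase B, had 1569 and 1432 RPKM in footprints and 207 and 265 RPKM in mRNA, an efficiency of 2.63 (SE 0.12). In each of these genes both footprint libraries exceeded both mRNA libraries several times over. ACS1, the acetyl-CoA synthetase that activates acetate, stood out for its abundance, with 4205 and 3749 RPKM in footprints against 559.8 and 706 RPKM in mRNA (efficiency 2.61, SE 0.13). MER1, a meiosis-specific splicing factor, had 62.5 and 52.6 RPKM in footprints against 7.03 and 11.4 RPKM in mRNA and an efficiency of 2.50 (SE 0.19). DED1, the RNA helicase that helps ribosomes scan to the start codon, had 103 and 96.0 RPKM in footprints against 17.0 and 19.4 RPKM in mRNA (efficiency 2.35, SE 0.11). Its paralogue DBP1 had 164 and 147 RPKM in footprints against 32.3 and 40.7 RPKM in mRNA (efficiency 2.02, SE 0.12). CHC1, the clathrin heavy chain, IXR1, an HMG-box transcription factor, TOM40, the channel of the mitochondrial protein import pore, and POR1, the outer membrane porin, completed the 10 highest named genes at 2.28, 2.28, 2.26 and 2.21. Among genes with only a systematic name that met the same filters, YNL194C (2.15), YPR172W (2.03) and YKR045C (1.82) were highest. IME1, the master regulator of meiotic entry, also passed, with 696 and 614 RPKM in footprints against 169.6 and 201 RPKM in mRNA (efficiency 1.77, SE 0.11). Without WT 6 h replicate 3 the calls of IXR1 (2.11), YNL194C (1.82), YKR045C (1.62) and IME1 (1.55) were lost, and YKR045C also lost its call without either 3 h replicate, at the same efficiency.

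The named genes of lowest efficiency paired abundant mRNA with few footprints. GBP2, a poly(A) RNA-binding protein of mRNA export, had 5.40 and 4.95 RPKM in footprints against 299 and 281 RPKM in mRNA, an efficiency of -5.60 (SE 0.09) or 48.6-fold below the median gene (adjusted p = 1.00e-07). MED7, a subunit of the Mediator complex, had 7.44 and 3.91 RPKM in footprints against 233 and 260.2 RPKM in mRNA (efficiency -5.31, SE 0.22). EFG1, a factor of 18S rRNA processing, had 5.72 and 6.56 RPKM in footprints against 266 and 261 RPKM in mRNA (efficiency -5.26, SE 0.22). These 3 genes had more than 200 RPKM of mRNA in every library and under 8 RPKM of footprints in every library. The counted stretch of EFG1 was 132 nucleotides, against 702 in RefSeq, so its values do not cover the annotated length. EFG1 held only 4 footprint reads in each 6 h replicate. NCS6, an enzyme of tRNA wobble-uridine thiolation, had 10.7 and 11.2 RPKM in footprints against 296 and 265 RPKM in mRNA (efficiency -4.60, SE 0.11). SSH1, a subunit of the alternative translocon of the endoplasmic reticulum, had 5.48 and 5.98 RPKM in footprints against 118 and 118 RPKM in mRNA (efficiency -4.19, SE 0.09). For both NCS6 and SSH1 the footprint libraries lay far below the mRNA libraries, and the replicates lay close together. SPR6, a sporulation gene, was different in scale, with 425 and 493 RPKM in footprints against 7791 and 7476 RPKM in mRNA (efficiency -4.10, SE 0.34), and the unnamed YEL023C was alike, with 196 and 221 RPKM in footprints against 5174 and 5012 RPKM in mRNA (efficiency -4.65, SE 0.34). The SEs of both take in the spread of their mRNA at 3 h, 211 and 106 RPKM for SPR6 and 128 and 52.5 RPKM for YEL023C. The allantoate permease DAL5 (-4.03), the signal recognition particle subunit SRP21 (-3.81) and the transcription factor PDR8 (-3.80) completed the 10 lowest named genes with RPL9A (-4.28), a ribosomal protein gene whose value is uncertain because reads may be shared with its near-identical paralogue RPL9B. RPL9A held only 6 and 19 footprint reads in replicates 3 and 4. YER076C (-3.23) and YGL039W (-3.03) followed YEL023C among genes with only a systematic name that met the same filters. Without WT 6 h replicate 3 the calls of SPR6 (-3.98), YEL023C (-4.56) and YGL039W (-2.93) were lost, and YGL039W (-3.17) also lost its call without replicate 4.

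**Figure D2:**
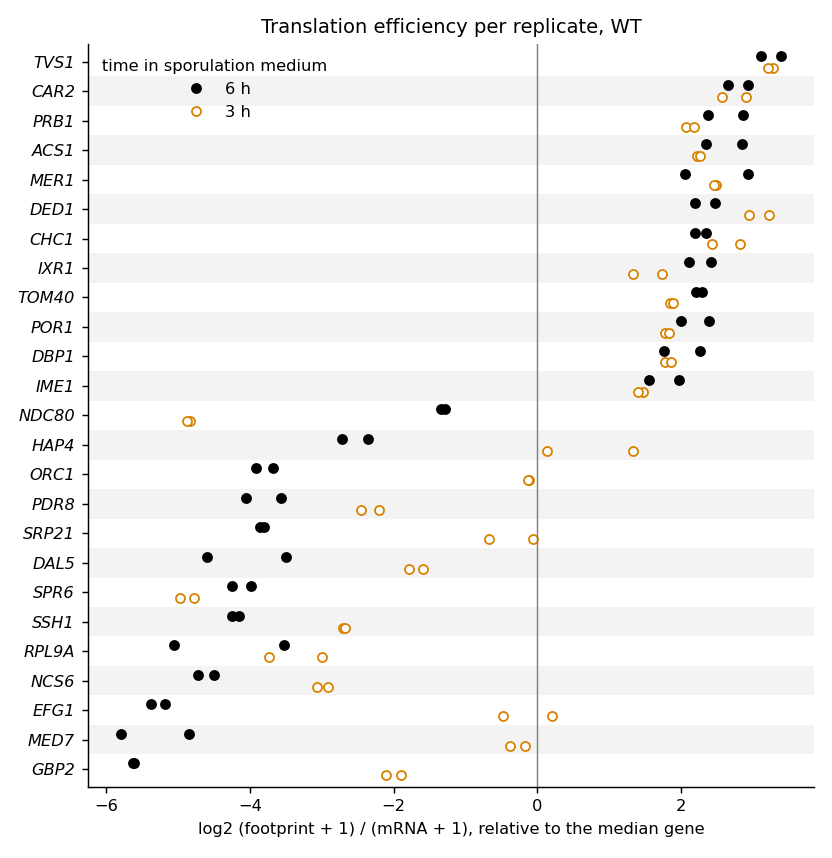
Translation efficiency per replicate (x axis, log2, relative to the median gene of that time) in WT at 6 h (filled) and 3 h (open) for 12 high and 13 low genes (y axis). The high genes lie to the right at both times, while GBP2, MED7, EFG1, SRP21, ORC1 and HAP4 lie far lower at 6 h than at 3 h and NDC80 lies higher.

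Genes of the meiotic programme spread around the median gene. Of 57 middle meiotic genes measured, 1 was high and 1 low (1.75% each, against 3.94% and 4.57% of all genes), and their median efficiency was -0.04 at 6 h, against -0.95 at 3 h. The 6 h median was 0.01 without centring or with all genes of at least 1 RPKM. The high gene was FKS3, a glucan synthase relative acting in spore wall assembly, with 140.2 and 139 RPKM in footprints against 37.1 and 39.9 RPKM in mRNA (efficiency 1.79, SE 0.08), and the low gene was SPR6. NDT80 itself lay at the median, with 1609 and 1607 RPKM in footprints against 1455 and 1522 RPKM in mRNA (efficiency 0.07, SE 0.20). SPS4, the sporulation gene with 57823 and 55005 RPKM in mRNA, had 9923 and 11885 RPKM in footprints (efficiency -2.42, SE 0.45, adjusted p = 0.0739). SSP2, a spore wall gene known to be held back in translation, had 1567 and 1622 RPKM in footprints against 6974 and 6937 RPKM in mRNA (efficiency -2.17, SE 0.36, adjusted p = 0.0677). Per replicate the 6 h efficiency was -2.21 and -2.16 for SSP2 and -2.60 and -2.27 for SPS4. At 3 h mRNA differed more, with 159 and 62.7 RPKM for SSP2 and 1151 and 355 RPKM for SPS4. The SEs and p-values of both genes take in that 3 h spread. Neither SPS4 nor SSP2 passed the threshold, but both did in the fit to only the 4 WT 6 h libraries, at adjusted p = 1.29e-04 and 3.56e-05, and without either 3 h replicate.

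Earlier and later meiotic genes differed in their medians. The 29 early meiotic genes had a median of 0.47 (0.73 in replicate 3 and 0.34 in replicate 4), with 3 high (10.3%, against 3.94% of all genes) and 1 low (3.45%, against 4.57%). MER1 was the highest and REC114, which acts in meiotic double-strand break formation, was next at 1.58 (SE 0.15), while HOP1, a protein of the meiotic chromosome axis, had 1.48 (SE 0.10) and was named after its values were seen. MSH5, a factor of meiotic crossing over, was the low one, with 50.5 and 43.0 RPKM in footprints against 177 and 169.8 RPKM in mRNA (efficiency -1.92, SE 0.09). The median was 0.02 for 17 late sporulation and spore wall genes, none of them called, from DIT2 at -2.05 (adjusted p = 0.0687) to SHE10 at 0.93. In the fit to only the 4 WT 6 h libraries DIT2 (adjusted p = 8.65e-04) and CTS2 (-1.36, adjusted p = 0.00766) did pass as low. Of 23 regulators of meiosis II and meiotic exit (median 0.00), CDC14, the phosphatase that ends the divisions, was the only one called low, with 68.4 and 71.9 RPKM in footprints against 278 and 279 RPKM in mRNA (efficiency -2.02, SE 0.07), and none was called high. SSP2, on the same list, lay lower at -2.17 but was not called. The 13 meiotic genes with introns had a median of 0.47, with REC114 called high and none called low. The lowest of them, AMA1 (-1.28, adjusted p = 0.0669), did pass as low in the fit to only the 4 WT 6 h libraries (adjusted p = 0.0311). REC114 lost its call without WT 6 h replicate 3 (1.26) and without 3 h replicate 4, and HOP1 lost its call without WT 6 h replicate 3 (1.28).

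**Figure D3:**
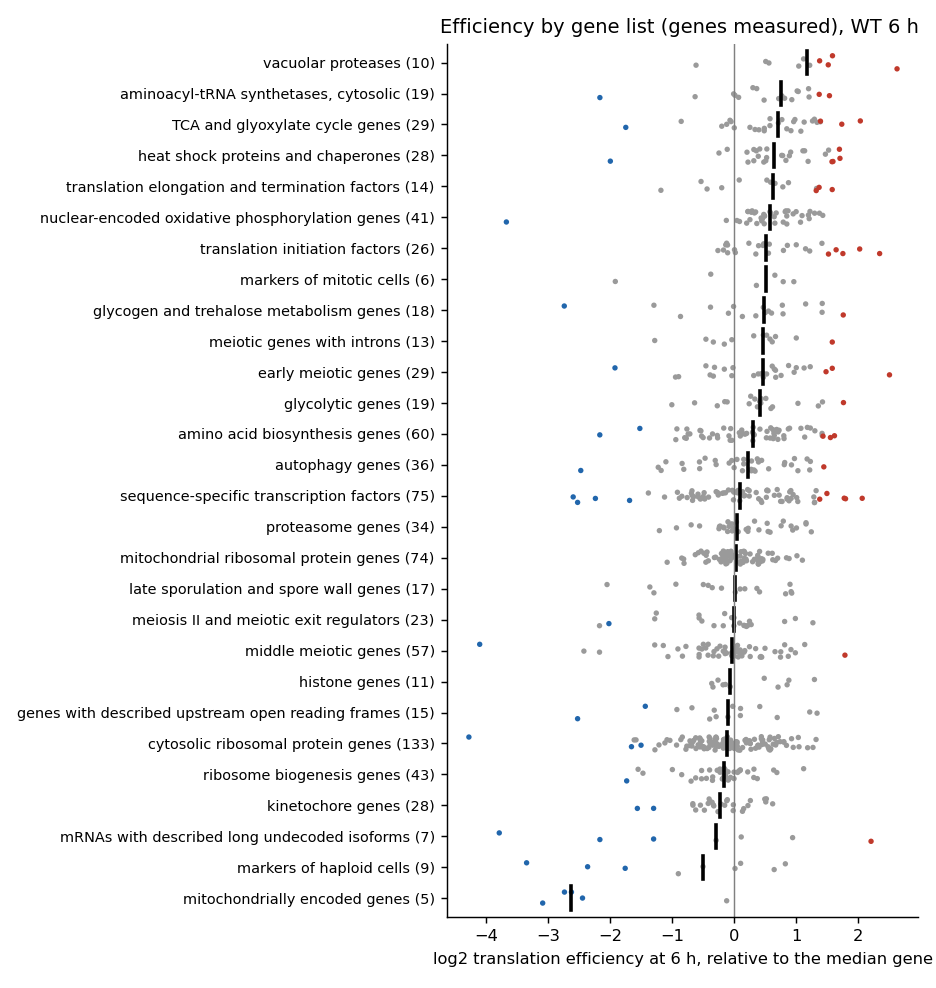
Efficiency at 6 h (x axis, log2, relative to the median gene) of each measured gene in 28 gene lists (y axis, number of genes in parentheses), with list medians as black bars and high and low genes in red and blue. Vacuolar proteases have the highest median, 1.17, and the 5 measured of 27 mitochondrially encoded genes the lowest, -2.62.

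Factors of translation had list medians above the median gene, while both lists of ribosomal protein genes lay close to it. Of 26 initiation factor genes 5 were high (19.2%, against 3.94% of all genes) and none low (4.57% of all genes), with a median of 0.52. Besides DED1 and DBP1 these were TIF4632 (1.64), a form of the scaffold eIF4G, PAB1 (1.52), the poly(A)-binding protein, and CLU1 (1.75), an eIF3-associated protein, all 3 named after their values were seen. The cap-binding protein CDC33, with 97.7 and 96.3 RPKM in footprints against 111 and 101 RPKM in mRNA, had -0.17 (SE 0.11), and TIF35, a subunit of eIF3, was lowest at -0.26 (SE 0.10). Elongation and termination factors had a median of 0.62 over 14 genes, 3 of them high, among them HYP2, which encodes eIF5A, at 1.58 (SE 0.10), and HEF3, a form of elongation factor 3, at 1.37 (SE 0.08). The termination factor SUP35 had 45.6 and 46.8 RPKM in footprints against 102 and 103 RPKM in mRNA and -1.18 (SE 0.08), short of the threshold (adjusted p = 0.24). Cytosolic aminoacyl-tRNA synthetases had a median of 0.76 over 19 genes. FRS2 of the phenylalanine enzyme (1.54) and GUS1 of the glutamate enzyme (1.37) were high, and CDC60 of the leucine enzyme was low, with 11.3 and 10.9 RPKM in footprints against 50.2 and 52.9 RPKM in mRNA (efficiency -2.16, SE 0.11). Ribosomal protein genes had a median of -0.11 and 0 high and 3 low calls among 133 cytosolic genes, and of 0.04 with none called among 74 mitochondrial ones, a median that turned to -0.05 with at least 20 RPKM in both kinds. The cytosolic median was -0.25 in replicate 3 and 0.04 in replicate 4, so its side of the median gene is not settled. Apart from RPL9A, the cytosolic genes ran from RPS15 at 1.32 and RPL6B at 1.27 down to ASC1, whose gene overlaps another annotated gene, at -1.65. Sharing of reads between paralogues was not checked for any of them. Of 95 ribosome biogenesis genes listed only 43 were measured, at medians of 11.7 RPKM in mRNA and 9.42 RPKM in footprints, near the lower edge of the set. Their median efficiency was -0.16 (-0.29 in replicate 3 and -0.03 in replicate 4), which turned to 0.03 over the 11 with at least 20 RPKM. One of the 43, the helicase gene ROK1 (-1.73), was low. Without WT 6 h replicate 3 the calls of HEF3 (1.29), GUS1 (1.29), FRS2 (1.49), ASC1 (-1.40) and ROK1 (-1.71) were lost, and without replicate 4 those of HYP2 (1.42), HEF3 (1.43), GUS1 (1.43), FRS2 (1.55) and ROK1 (-1.79). The calls of PAB1 (1.44 and 1.57), TIF4632 (1.73 and 1.53) and CLU1 (1.67 and 1.80) were lost without replicate 3 and without replicate 4, and those of TIF4632 (1.34) and CLU1 (1.47) also with a pseudocount of 5 RPKM.

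Lists of protein breakdown, respiration and carbon metabolism had medians above the median gene. Vacuolar proteases had the highest list median, 1.17 over 10 genes with 4 high and none low, where 3.94% of all genes were high and 4.57% low. PRB1 was followed by CPS1, carboxypeptidase S, with 68.8 and 63.1 RPKM in footprints against 20.7 and 20.5 RPKM in mRNA (efficiency 1.59, SE 0.09), and PEP4, proteinase A, was lowest with 1584 and 1653 RPKM in footprints against 2320.2 and 2483 RPKM in mRNA (efficiency -0.61, SE 0.10). Genes of the TCA and glyoxylate cycles had a median of 0.71 over 29 genes (1.00 in replicate 3 and 0.44 in replicate 4), 3 high and 1 low. KGD1 of α-ketoglutarate dehydrogenase (2.03, SE 0.14) and MDH2, the cytosolic malate dehydrogenase (1.74, SE 0.11), were highest. ICL1, isocitrate lyase of the glyoxylate cycle, was the low one, with 821 and 911 RPKM in footprints against 2843 and 2785 RPKM in mRNA (efficiency -1.75, SE 0.11). Of 41 nuclear genes of oxidative phosphorylation 39 lay above the median gene, but none was called high, and their median was 0.58. The exception at the low end was COX5B, the isoform of a cytochrome oxidase subunit made in low oxygen, with 21.5 and 16.4 RPKM in footprints against 252 and 234 RPKM in mRNA (efficiency -3.67, SE 0.14). Chaperone genes had a median of 0.65 over 28 genes with 4 high, among them STI1 (1.71) and SSE1 (1.70), both partners of Hsp70 proteins, and 1 low, the Hsp70 gene SSA4 (-1.995). Glycolytic genes (median 0.41 over 19) had 1 high gene, PFK2 of phosphofructokinase (1.76), and glycogen and trehalose genes (median 0.49 over 18) had GDB1, the glycogen debranching enzyme, high (1.76) and GLG1, a glycogen primer, low (-2.74). Amino acid biosynthesis genes (median 0.30 over 60) had 3 high, among them MET6 (1.62) and ARO1 (1.55), and 2 low, MET14 (-1.52) and the glutamine synthetase gene GLN1, with 758 and 903 RPKM in footprints against 3643 and 3555 RPKM in mRNA (efficiency -2.17, SE 0.14). Without WT 6 h replicate 3 the calls of CPS1 (1.51), KGD1 (1.93), MDH2 (1.79), ICL1 (-1.67), STI1 (1.53), PFK2 (1.56), GDB1 (1.67), MET6 (1.80), ARO1 (1.29), MET14 (-1.42) and GLN1 (-2.04) were lost, and without replicate 4 those of CPS1 (1.63), KGD1 (2.11), MDH2 (1.65), GDB1 (1.82), MET6 (1.40) and MET14 (-1.65). ARO1 also lost its call without either 3 h replicate, at the same efficiency.

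Genes known for regulated translation held both ends. Of 7 measured genes with a described LUTI, 3 were low (42.9%, against 4.57% of all genes) and 1, POR1, was high (3.94% of all genes), with a median of -0.29. That median rests on few genes, and was 0.07 over the 5 with at least 20 RPKM in both kinds and -0.74 over the 8 with at least 1 RPKM. ORC1, a subunit of the origin recognition complex, was lowest with 13.6 and 11.5 RPKM in footprints against 179 and 180.4 RPKM in mRNA (efficiency -3.79, SE 0.11). CDC60 was the second low gene, and NDC80, an outer kinetochore subunit, was the third with 87.5 and 90.4 RPKM in footprints against 207 and 219.9 RPKM in mRNA (efficiency -1.30, SE 0.08, adjusted p = 0.0385). NDC80 lay just past the threshold and lost its call when any of the 4 WT replicates was left out, with values of -1.33 without 6 h replicate 3 and -1.29 without 6 h replicate 4, and also without centring (-1.25), without the variance trend and with a pseudocount of 5 RPKM (-1.26). HNT1, a nucleotide-binding hydrolase gene on the same list, had 0.94. Of 15 genes with described upstream open reading frames 2 were low (13.3%) and none high, with a median of -0.10. HAP4, the activator subunit for respiratory genes, had 45.2 and 41.6 RPKM in footprints against 226 and 268 RPKM in mRNA (efficiency -2.52, SE 0.26), and HOL1, a polyamine transporter, had 49.3 and 50.1 RPKM in footprints against 132 and 131 RPKM in mRNA (efficiency -1.43, SE 0.09). The calls of HAP4 (-2.72 and -2.35) and HOL1 (-1.43 and -1.46) were lost without WT 6 h replicate 3 and without replicate 4. CPA1, whose upstream peptide stalls ribosomes in arginine, had 53.8 and 51.2 RPKM in footprints against 97.1 and 97.3 RPKM in mRNA (efficiency -0.92, SE 0.14), and the kinase gene SCH9 and TIF4631, the other form of eIF4G, were highest on that list at 1.34 and 1.22. GCN4, the best known case of upstream-frame control, averaged 3.83 RPKM in footprints and so fell outside the set. It had 6.01 and 1.65 RPKM in footprints against 408 and 417 RPKM in mRNA.

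Of 75 genes on a list of transcription factors 5 were high (6.67%) and 4 low (5.33%), near the 3.94% and 4.57% of all genes. Their median was 0.10, and their quartiles of -0.50 and 0.76 lay close to the -0.47 and 0.53 of all genes. GIS1, a zinc finger factor of nutrient limitation, was highest on that list, which does not hold IXR1 or PDR8, with 803 and 769 RPKM in footprints against 180.1 and 182 RPKM in mRNA (efficiency 2.06, SE 0.08), and the stress factor MSN4 was next on it at 1.80 (SE 0.12). SIP4, an activator of gluconeogenic genes, was lowest on the list with 16.6 and 14.9 RPKM in footprints against 94.4 and 99.6 RPKM in mRNA (efficiency -2.59, SE 0.10). MSN4 lost its call without WT 6 h replicate 3 (1.63). HAC1, the factor of the unfolded protein response whose mRNA must be spliced in the cytoplasm before it is translated, had 501 and 597 RPKM in footprints against 859 and 809.8 RPKM in mRNA (efficiency -0.65, SE 0.16). Kinetochore genes had a median of -0.24 over 28 genes with 0 high and 2 low, NDC80 and DAD1 of the Dam1 complex, at -1.56 (SE 0.11), the second of which lost its call without WT 6 h replicate 3 (-1.59). Proteasome genes (median 0.05) had none called among 34, from RPN8 at -1.21 to RPN2 at 1.24, and 11 histone genes (median -0.06) had none called either, from HTA2 at -0.36 to HHO1 at 1.29. The histone median was -0.27 in replicate 3 and 0.13 in replicate 4. Autophagy genes (median 0.22 over 36) had ATG2, a lipid transfer protein of the autophagosome, high at 1.45 and ATG5, of the Atg8 conjugation machinery, low at -2.47 (SE 0.13). The call of ATG2 was lost without WT 6 h replicate 3 (1.33) and without replicate 4 (1.54). Of 9 haploid marker genes 3 were low, among them the a-factor gene MFA1 (-3.35, SE 0.17) and the scaffold STE5 (-2.36, SE 0.22), and STE5 lost its call without WT 6 h replicate 3 (-2.19) or replicate 4 (-2.56). On the further list of 16 mitotic markers 6 genes were measured, and none was called. Only 5 of 27 listed mitochondrially encoded genes were measured, and whether their footprints compare with those of other genes was not tested. They were the lowest list, with 4 of 5 low and a median of -2.62, which was -2.14 with a pseudocount of 5 RPKM and -1.32 over the 2 genes with at least 20 RPKM in both kinds. Among them were the intron-encoded frames AI5_ALPHA (-3.09), AI4 (-2.73) and AI3 (-2.44), which overlap another annotated gene and whose reads may be shared with it, and AI3 lost its call without WT 6 h replicate 3 (-2.29) or replicate 4 (-2.62).

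The same genes were compared between 6 h and 3 h in WT to see which efficiencies differed from those of the earlier time. Efficiencies at the 2 times correlated at r = 0.766 across the 4818 genes. Relative to the median change, limma called 321 genes higher at 6 h (6.66%) and 433 lower (8.99%). The median of all genes itself shifted by 0.51 on the log2 scale in the deposited values, and without that centring 2616 genes were called higher and 173 lower, so every change below is relative to that shift. The called numbers fell to 41 higher and 95 lower without WT 6 h replicate 3, and to 40 higher and 121 lower without replicate 4. They were 233 higher and 326 lower without 3 h replicate 3, and 317 higher and 323 lower without 3 h replicate 4. All 190 high genes were above the median gene at 3 h too, and 138 were past 2-fold in both 3 h replicates, whereas 18 of the 220 low genes were on the other side of the median gene at 3 h and 134 were past 2-fold low in both 3 h replicates. Among the high genes 30 were called higher and 2 lower at 6 h, and among the low genes 11 were called higher and 111 lower, counts in which the 6 h libraries enter both calls.

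Several of the lowest genes at 6 h were near the median gene 3 h earlier. EFG1 differed by -5.18 (SE 0.30) between 6 h and 3 h, with 29.8 and 17.2 RPKM in footprints and 33.6 and 33.6 RPKM in mRNA at 3 h. For MED7 the difference was -5.09 (SE 0.31), and the 3 h values were 38.7 and 41.5 RPKM in footprints and 65.9 and 64.3 RPKM in mRNA. For ORC1 it was -3.72 (SE 0.15), with 55.2 and 48.7 RPKM in footprints and 77.6 and 73.0 RPKM in mRNA at 3 h. In each of these genes mRNA was higher at 6 h than at 3 h while footprints were lower, and the libraries of the 2 times did not overlap. SOM1, of the mitochondrial inner membrane peptidase (-3.75, SE 0.35), and GBP2 (-3.66, SE 0.12) were the other 2 of the 5 largest falls. At 6 h EFG1 had only 4 and 4 footprint reads, and SOM1 had 8 and 12. For HAP4 the difference was -3.32 (SE 0.36), a call lost without WT 6 h replicate 3 (-3.49) or replicate 4 (-3.15).

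In the other direction, the 5 genes that gained most all had under 5 RPKM in footprints at 3 h. They entered the set through their 6 h levels alone, as did 45 of the 321 genes called higher. Over the 4687 genes that also averaged at least 5 RPKM in both kinds at 3 h, a restriction chosen after the data were seen, 285 were called higher and 429 lower. TPO4, a polyamine transporter, had 14.5 and 12.2 RPKM in footprints at 6 h against 1.02 and 1.35 RPKM at 3 h, and 23.8 and 24.6 RPKM in mRNA at 6 h against 106 and 104 RPKM at 3 h, a difference in efficiency of 4.27 (SE 0.19). MNE1, which acts in splicing of a mitochondrial intron, had 13.0 and 14.6 RPKM in footprints at 6 h against 1.81 and 1.01 RPKM at 3 h, and 119 and 126 RPKM in mRNA at 6 h against 509.9 and 462 RPKM at 3 h (4.10, SE 0.22). It was still among the low genes at 6 h, at -3.11. TPH3 (4.13, SE 0.16), the methionyl-tRNA synthetase gene MES1 (3.82, SE 0.22) and RTT10, which acts in tRNA methylation (3.75, SE 0.21), were the other 3 of the 5 largest rises. NDC80 had 87.5 and 90.4 RPKM in footprints at 6 h against 6.07 and 5.86 RPKM at 3 h, while its mRNA was 207 and 219.9 RPKM at 6 h against 259 and 272 RPKM at 3 h, a difference in efficiency of 3.49 (SE 0.11) (adjusted p = 7.97e-06). CLB3, the meiosis II cyclin, had 738 and 663 RPKM in footprints at 6 h against 12.7 and 13.5 RPKM at 3 h and 1001 and 1008 RPKM in mRNA at 6 h against 138 and 139 RPKM at 3 h, a difference of 2.27 (SE 0.12). Both genes gained footprints far beyond their change in mRNA, and the libraries of the 2 times did not overlap in footprints. HAC1 gained 2.85 (SE 0.23). Of the 57 middle meiotic genes 15 were called higher at 6 h and 2 lower, and 6 of the 15 entered through their 6 h levels alone. Of the 48 that reached 5 RPKM at both times, 9 were called higher and 2 lower, where 285 and 429 of all 4687 such genes were. GIP1 (2.84, SE 0.26), a phosphatase subunit of spore wall formation, and ADY4 (2.62, SE 0.14), of the meiotic spindle pole, were among those 6 and were named after their values were seen. At 3 h their mRNA was at 65.4 and 41.9 RPKM for GIP1 and at 41.7 and 35.9 RPKM for ADY4. It was their footprints that averaged under 5 RPKM at 3 h, with 5.13 and 4.38 RPKM for GIP1 and 1.23 and 1.02 RPKM for ADY4.

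**Figure D4:**
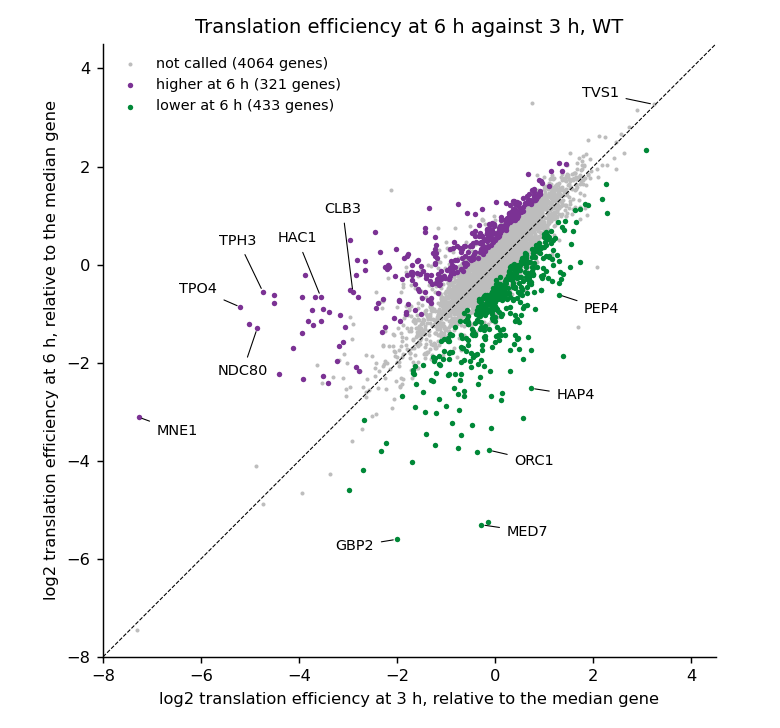
Efficiency at 6 h (y axis) against 3 h (x axis) in WT, both log2 relative to the median gene of that time, for 4818 genes, with 321 called higher at 6 h in purple and 433 called lower in green. The high end, with TVS1, lies along the dashed line of equal values, and the spread away from it is widest among genes below the median at either time.

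High-efficiency genes had longer reading frames, with a median counted length of 1623 nucleotides, against 1107 for all 4818 genes, while low-efficiency genes had 1069.5. Counted length is the stretch over which reads were counted, which for 4189 genes (86.9%) was the RefSeq length less 60 nucleotides. The median efficiency was 0.28 in the 609 genes over 2400 nucleotides, against -0.11 in the 1497 genes of 600 to 1200, and the share called high was 7.22% and 2.67% in the same bins. Below 300 nucleotides the median was 0.01 over 352 genes with 1.99% high. The rank correlation of efficiency with length was 0.145 across the 4818 genes. The rank correlation of efficiency with mRNA level was -0.102, a value that shares the mRNA libraries with the efficiency. Low calls were 0 of the 964 genes with the scarcest mRNA, where footprints had to reach 5 RPKM to enter the set, against 69 of the 964 with the most.

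**Figure D5:**
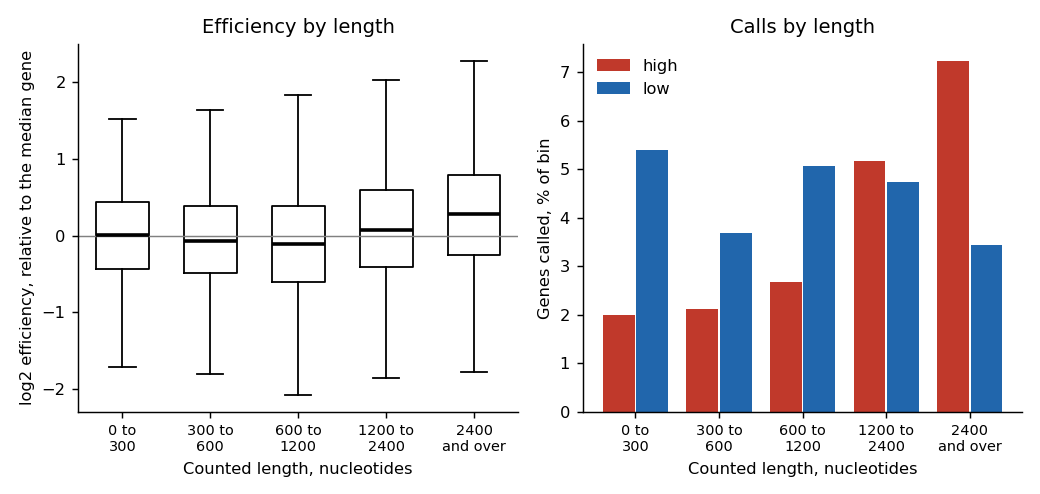
Left, efficiency at 6 h (y axis, log2, relative to the median gene) by counted length (x axis, nucleotides), as boxes of quartiles with the median line and whiskers to 1.5 box heights. Right, the percent of genes in each bin called high (red) or low (blue), where the high share reaches 7.22% in the longest bin.

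Libraries of the DBP1 deletion at 6 h gave values of the same genes in other samples, and no 3 h library of that strain was used. Deletion libraries took no part in the calls, since a library of that strain is reported not to match its label. Across the 4818 genes efficiency correlated with that of WT at r = 0.950 in deletion replicate 2 and 0.959 in deletion replicate 4. Of the 190 high genes 184 were past 2-fold in both deletion pairs of libraries, and of the 220 low genes 214 were. How many of all 4818 genes were past 2-fold in both deletion pairs was not counted. TVS1 had 3.36 and 3.34 in the deletion pairs, against 3.39 and 3.11 in WT replicates 3 and 4. GBP2 had -5.16 and -5.73 in the deletion pairs, against -5.61 and -5.63 in WT, and ORC1 had -3.26 and -4.22, against -3.68 and -3.92 in WT. DED1 had 3.18 and 2.52 in the deletion pairs, against 2.47 and 2.19 in WT. NDC80 had -1.22 and -1.62 in the deletion pairs, against -1.29 and -1.33 in WT. For DBP1 itself the reading frame is gone in the deletion strain, and no efficiency is given.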

How the data were processed

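The authors deposited 1 table of RPKM values per gene and library, per the file headers, with no pooling. Footprints of 28 to 31 nucleotides and mRNA fragments of 50 nucleotides were selected, per the labels' protocols. Per the submitters' processing notes, Bowtie2, CASAVA and bcl2fastq 2.17 were used, without a stated role. How reads were counted, on which strand, with which build and annotation is not given in the sources used here. Reads may therefore be shared between genes that overlap or are nearly identical. RefSeq symbols (R64) matched 5994 of 6679 IDs, and no coordinates were taken from it. Whole reads were recovered for all 6679 genes to within 0.02 read, from the depth of each library and a counted length that was 60 nucleotides under RefSeq's for 5089 genes. They give depth only, and intervals are not drawn from them.

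limma 3.58.1 in R 4.3.3 was fitted to log2(RPKM + 1) of the 8 WT libraries with a mean per kind and time. Efficiency was tested with treat at 2-fold (trend), and its change from 3 h to 6 h with an empirical Bayes test (trend), both two-sided, centred on the median of the genes tested and adjusted by Benjamini-Hochberg over all 4818 genes at a threshold of 0.05. Since each is centred on its own median, a change differs by 0.06 from the 6 h value minus the 3 h value. Per-replicate efficiencies set libraries of the same replicate number against each other. Each replicate counted as its own sample. Replicates differed by more than sampling noise (mean chi-square per gene 3.85 to 12.2, against about 1 from noise). That excess cannot show whether they came from separate cultures, since separate library preparations can differ too. The steps were tested on simulated data. The spread estimate is shared with the 3 h libraries, which differed more between replicates than the 6 h ones.

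Genes named are the 10 highest and 10 lowest called with a standard name and the 3 highest and 3 lowest with only a systematic name. All of these matched RefSeq, lay past 2-fold in both replicates and overlapped no other annotated gene, so more extreme genes outside these filters are not named. Also named are 10 genes known for translational control, the 2 highest and 2 lowest of each list, and the 5 largest changes each way. The set of genes, the 28 lists and the tests were chosen with earlier results of these data known. Gene lists are described by counts and medians with no test. Alternatives were the pseudocount, the filter, centring, the variance trend, the minimum fold, the libraries fitted, a replicate block and leaving out each replicate. No sequences were used.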

Additional observations from a re-analysis of the deposited data

Results flagged for a closer look

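Efficiency differed between 6 h and 3 h by the interaction test (limma, adjusted p under 0.05) for 56 of the 145 genes named here. Over all 4818 genes, 321 (6.66%) were called higher and 433 (8.99%) lower. Some named genes were picked by the size of their change, so the shares are not comparable. Each of the 56 is given with its change in log2 efficiency, 6 h minus 3 h, relative to the median change. Of the lowest named genes, EFG1 (-5.18), MED7 (-5.09), GBP2 (-3.66), NCS6 (-1.67), SSH1 (-1.56), DAL5 (-2.40), SRP21 (-3.50) and PDR8 (-1.53) were lower at 6 h, and so were YER076C (-2.42) and YGL039W (-1.88) among genes with only a systematic name. Genes with described LUTIs moved both ways, with ORC1 (-3.72) lower and NDC80 (3.49) and CDC60 (0.55) higher. In the list of described upstream frames HAP4 (-3.32), SCH9 (-0.91), CPA1 (-0.81) and HOL1 (-0.62) were lower. Of the transcription factor genes named here, HAC1 (2.85) and GIS1 (0.70) were higher.

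Of the meiotic genes named here, CLB3 (2.27), GIP1 (2.84), ADY4 (2.62), MIP6 (1.35) and ADY3 (0.58) were higher at 6 h, while CDC14 (-1.73), AMA1 (-1.05) and MSH5 (-1.05) were lower. Among genes of translation and ribosomes, MES1 (3.82), FRS2 (0.68), PAB1 (0.70), ASC1 (1.48) and NAM9 (0.52) were higher and SUP35 (-1.73), DED1 (-0.79), ROK1 (-2.10) and UTP7 (-1.06) were lower. Metabolic and vacuolar genes were lower at 6 h in ICL1 (-2.53), GLN1 (-2.52), COX5B (-2.51), PEP4 (-1.97) and GLG1 (-1.66). Among the other lists, SSE1 (0.70), RPN2 (0.57), ATG2 (0.69) and FAR1 (1.06) were higher and RPN8 (-0.71), RPN5 (-0.41), HHF2 (-0.60), DAD1 (-0.68), STE5 (-1.12) and EGT2 (-1.73) were lower. The remaining large changes were TPO4 (4.27), TPH3 (4.13), MNE1 (4.10) and RTT10 (3.75) upwards and SOM1 (-3.75) downwards. TPO4, TPH3, MNE1, MES1, RTT10, GIP1, ADY4, FAR1 and STE5 did not reach 5 RPKM in both kinds at 3 h, so they were in the set through their 6 h levels alone.

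Many of these calls rest on both WT 6 h replicates. Without replicate 3, 26 of the 56 lost their call, each within 0.25 of the change given: DED1, PDR8, YGL039W, CPA1, MIP6, ADY3, CDC60, HAP4, HOL1, SCH9, SSE1, ROK1, UTP7, RPN5, RPN2, HHF2, DAD1, GIS1, FRS2, GLG1, STE5, FAR1, EGT2, NAM9, ATG2 and PAB1. Without replicate 4 the same 26 and also RPN8 and ASC1 lost it, each within 0.28. Without 3 h replicate 3 the calls of DED1, DAL5 (-2.30), CPA1 (-0.52), CDC60, HOL1, UTP7, RPN5, DAD1, FAR1, EGT2 (-0.91), NAM9 and ATG2 were lost, and without 3 h replicate 4 those of CDC60, RPN5, DAD1, STE5 (-0.70) and NAM9. Without centring on the median change the calls of DED1 (-0.28), CPA1 (-0.30), HOL1 (-0.11), SCH9 (-0.40), UTP7 (-0.55), RPN8 (-0.20), HHF2 (-0.09), DAD1 (-0.17), STE5 (-0.60) and EGT2 (-1.22) were lost, and RPN5 turned to 0.10. In the deposited values 37 of the 433 genes called lower were above 0. ASC1 overlaps another annotated gene, so its reads may be shared.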

How the results depend on the processing

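No called efficiency of a named gene changed its sign under any alternative, and 1 change between the times did: RPN5 was 0.10 without centring. Counts within 1.5 times of those reported came from a pseudocount of 5 or 0.1 RPKM, limma without the trend, limma-voom on recovered reads, only the 4 WT 6 h libraries and only genes of RefSeq length without overlap, the voom and RefSeq-length fits having been chosen after the data were seen. Single calls were still lost there: a pseudocount of 5 RPKM ended those of YKR045C, NDC80, REC114, ROK1, MET14, ARO1, MET6, GUS1, ASC1, TIF4632 and CLU1 and the changes of RPN5 and FAR1, the fit to 4 libraries those of YKR045C, ARO1 and GUS1, voom those of MET14 and DAD1 and the changes of DAD1 and STE5, the fit without the trend that of NDC80 and the changes of MIP6 and RPN5, and 0.1 RPKM the changes of CDC60, STE5 and EGT2. No centring ended the calls of NDC80 and MET14, the 1 RPKM filter that of NDC80 and the changes of STE5 and FAR1, and the 20 RPKM filter that of REC114. With at least 20 RPKM in both kinds there were 110 high and 105 low genes, and with at least 1 RPKM 332 low, since other numbers of genes enter. Tested against the median gene with no minimum fold, 1610 were high and 1467 low. Without centring, 2616 were higher and 173 lower at 6 h than at 3 h. Leaving out each replicate in turn gave 44 to 198 high, 99 to 245 low, 40 to 317 higher and 95 to 326 lower genes, and the fits without a 6 h replicate leave 1 library of each kind there. Footprint and mRNA libraries carry the same sample numbers, but the labels do not say that a number marks 1 culture, and it was not used as a pair: deviations of footprint and mRNA libraries from their group means correlated across genes at -0.17 at 6 h and -0.32 at 3 h. With the number as a replicate block 120 genes were high, 191 low, 137 higher and 199 lower. It ended the calls of NDC80, REC114, HOL1, HEF3, ROK1, MET14, ARO1, GUS1, ATG2, HOP1, TIF4632 and CLU1 and the changes of DED1, CPA1, MIP6, ADY3, CDC60, HOL1, UTP7, RPN8, RPN5, RPN2, HHF2, DAD1, STE5, FAR1, EGT2, NAM9, ATG2 and PAB1, and brought SPS4 and SSP2 past the threshold. With crossed pairing, chosen after the data were seen, 233 were high, 241 low, 509 higher and 612 lower. List medians moved by up to 1.30 with at least 20 RPKM (mitochondrially encoded genes), 0.86 with at least 1 RPKM (mitotic markers), 0.48 with a pseudocount of 5 RPKM, 0.17 with 0.1 RPKM and 0.05 without centring. Depth limits the low edge: a called gene had as few as 0 footprint or 8 mRNA reads in a library.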

Other observations

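Genes outside the set because only 1 kind of library reached 5 RPKM hold values of their own. There were 518 genes with mRNA but not footprints at 5 RPKM, 39 of them with at least 50 RPKM of mRNA. After GCN4, the highest of these with a standard name and no overlap were DGR1, with 2.171 and 2.49 RPKM in footprints against 289.8 and 266 RPKM in mRNA over a counted length of 87 nucleotides, and SPG3, with 1.17 and 2.67 RPKM in footprints against 277 and 218 RPKM in mRNA.

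The reverse held for 127 genes. NIP1 and RPG1, both subunits of the initiation factor eIF3, had 14.8 and 15.6 RPKM (NIP1) and 13.6 and 15.6 RPKM (RPG1) in footprints, against 4.08 and 3.83 RPKM (NIP1) and 4.49 and 4.66 RPKM (RPG1) in mRNA. SRO9, an RNA-binding protein, had 11.5 and 16.3 RPKM in footprints against 2.63 and 2.38 RPKM in mRNA. These were the highest in footprints with a standard name, no overlap and the usual counted length. At the edge of the set, UPA2 entered with a mean of 5.00 RPKM in footprints and TOP3 with 5.01 RPKM in mRNA, while OYE3 stayed out with 4.999 RPKM in footprints and YIL030W-A with 4.99 RPKM.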
